A study of Mus musculus with 15 samples.

Results

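The laminins, the nidogens, perlecan and Sparc were followed in mouse kidney as 10 genes of the basement membrane, namely Lama1, Lama4, Lama5, Lamb1, Lamb2, Lamc1, Nid1, Nid2, Hspg2 and Sparc. All probes whose gene symbol in the array annotation, current or earlier, was one of these names were taken, which gave 19 of the 45281 probes of the Illumina MouseWG-6 array. Kidney RNA came from 15 male C57BL/6 mice, with 1 mouse per array. The 4 RES 4W mice were killed at 7 weeks of age after 4 weeks of water restriction, and the 3 CON 4W mice at the same age with free water. The 4 RES 1W mice were killed at 4 weeks of age after 1 week of restriction, and the 4 CON 1W mice at the same age with free water. Restriction began at weaning, at 3 weeks of age, and gave the mice 15 min of access to water per day. All groups were given an AIN-93G diet, and the RES mice were killed a day after their last bottle. The study reported that restricted mice ate less in the first days and caught up after the first week. Water restriction and lower food intake therefore cannot be told apart in RES 1W. Since both RES groups started at the same age, the length of restriction and the age at death cannot be told apart between them.

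A basement membrane is a thin sheet of extracellular matrix under epithelia and around vessels. Laminins, trimers of an alpha, a beta and a gamma chain, polymerize on the cell surface beside a network of type IV collagen, and nidogens and perlecan link the networks. In the mature glomerulus the filtration barrier holds the laminin built of the chains of Lama5, Lamb2 and Lamc1, in which the Lamb2 chain takes the place of the Lamb1 chain of the developing glomerulus. Sparc is a secreted glycoprotein that binds calcium and collagen and is abundant in growing tissue.

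Log2 levels were computed from the deposited intensities. A probe was tested when its detection p-value was under 0.05 in at least 3 arrays, as was the case for 19027 probes of the array and for 14 of the 19 member probes, which stand for 9 of the 10 genes. Differences are log2 differences with their standard error (SE) from limma, and a probe was called at a Benjamini-Hochberg adjusted p under 0.05 over all tested probes. Between 15295 and 17433 probes were detected per array. Markers of proximal tubule, thick ascending limb and collecting duct were detected, whereas no marker of adrenal cortex or skeletal muscle passed the filter. Of 4 adipocyte markers 1 did, Adipoq, detected in 10 arrays, with a difference of -0.82 in RES 4W against CON 4W and of -0.86 in RES 1W against CON 1W (adjusted p of 0.17 and 0.24 from limma). RES 4W replicate 1 stood apart. Its mean correlation across probes was 0.978 with the other RES 4W arrays and 0.988 with the CON 4W arrays. Values that rest on RES 4W are therefore also given without it. It was set apart in these same data, so a difference that grows without it is not independent evidence. Among the deposited intensities it was listed last, after the CON 4W arrays, and the other RES 4W arrays among the RES 1W arrays. The labels do not say what this order stands for, and its part in the values was not tested. The number of arrays limits the precision. The RNA was of whole kidney, in which fewer cells of a type and less RNA per cell cannot be told apart.

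**Figure D1:**
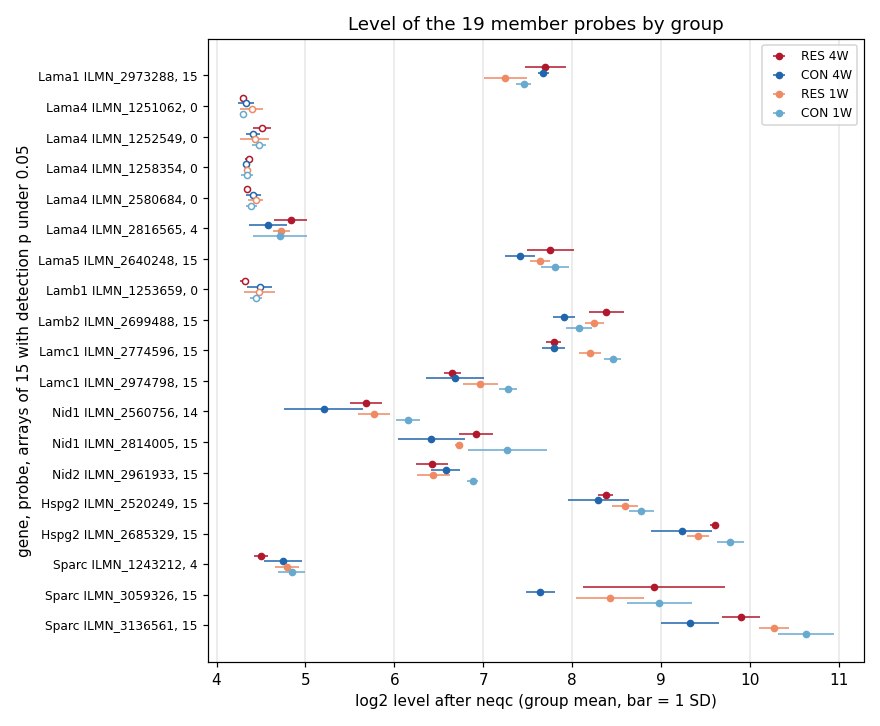
Log2 level (x axis, group mean, bar of 1 SD) of each of the 19 member probes (rows, with the number of arrays of 15 in which the probe was detected) in RES 4W, CON 4W, RES 1W and CON 1W. Filled points are tested probes, and the 5 probes with open points, 4 of Lama4 and the one of Lamb1, were detected in 0 arrays.

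Among the alpha chains, Lama1, a chain of tubular basement membranes, had 1 probe, ILMN_2973288, which was detected in all 15 arrays at a deposited intensity of 107 to 244. Lama5, the alpha chain of the mature glomerular membrane, was read from ILMN_2640248 at intensities of 142 to 232, again in 15 arrays. Lama4, the alpha chain of vessel walls, was hardly measured. Of its 5 probes, 4 (ILMN_1251062, ILMN_1252549, ILMN_1258354 and ILMN_2580684) were detected in 0 arrays. The fifth, ILMN_2816565, was detected in 4 of the 15 arrays, namely 2 RES 4W, 0 CON 4W, 1 RES 1W and 1 CON 1W array, and its highest intensity was 19.4.

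Of the beta chains, Lamb2 was detected in 15 arrays by ILMN_2699488, at intensities of 202 to 357. The single probe of Lamb1, ILMN_1253659, was detected in 0 arrays and was not tested. It and the undetected probes of Lama4 lay between -8.56 and 9.60 in intensity, with a smallest detection p-value of 0.069. Lamc1, the gamma chain shared by most laminins, had 2 probes detected in 15 arrays, ILMN_2774596 at intensities of 185 to 368 and ILMN_2974798 at 64.9 to 152.

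Most of the linkers were measured by more than 1 probe. Nid1, which bridges the laminin gamma 1 chain and type IV collagen, was read from ILMN_2814005 at intensities of 57.4 to 184 and from the dimmer ILMN_2560756 at 12.2 to 65.4. The dimmer probe was detected in 14 arrays and missed in CON 4W replicate 3. Nid2, the paralog of Nid1, lay at intensities of 58.3 to 109 (ILMN_2961933). Hspg2, which encodes the heparan sulfate proteoglycan perlecan, lay at 446 to 952 on ILMN_2685329 and at 230 to 481 on ILMN_2520249. Sparc was read from ILMN_3136561 at intensities of 526 to 1945 and from ILMN_3059326 at 160 to 683. A further Sparc probe, ILMN_1243212, stayed near background, with 4 detected arrays and a highest intensity of 17.6.

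The change with age under free water was read from CON 4W against CON 1W. Sparc, Nid1, Lamc1 and Hspg2 were lower in CON 4W, and 7 of the 14 tested member probes were called, all of them lower. Over all tested probes, 1.79% were called lower in this comparison. Nid1 is among the genes that the study itself named from these samples, so its direction is not independent evidence. All the members were chosen with earlier results of these data known. Their count of calls beside the share over all probes is therefore not independent evidence either. Read from the brightest probe of each gene, 4 of the 9 tested genes fell and 0 rose, and the median difference of these genes was -0.395, against -0.0015 over all tested probes. Of the 14 estimates 13 were below 0. The groups did not overlap on 9 of the 14 probes, against 16.7% of all tested probes. Among these 9 the Lama1 probe was higher in CON 4W, by 0.22.

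Sparc had log2 levels of 9.21, 9.08 and 9.70 in CON 4W and of 10.21, 10.63, 10.94 and 10.76 in CON 1W on its brightest probe, ILMN_3136561. Every CON 4W array was below every CON 1W array. The probe fell by 1.30 in log2 units (SE 0.18, adjusted p = 0.00063 from limma), a 2.47-fold difference. On ILMN_3059326 the levels were 7.46, 7.73 and 7.74 in CON 4W and 8.45, 9.06, 9.15 and 9.28 in CON 1W, and this probe fell by 1.34 (SE 0.33, adjusted p = 0.037), again with no overlap. The 2 estimates lay closer together than either SE. The near-background probe ILMN_1243212 was detected in 1 array of each group, with a difference of -0.10 (SE 0.12, adjusted p = 0.75).

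Nid1 was at 5.70, 5.07 and 4.85 in CON 4W, and at 6.10, 6.15, 6.04 and 6.34 in CON 1W, on ILMN_2560756. It fell by 0.95 in log2 units (SE 0.17, adjusted p = 0.0055 from limma) with no overlap of the groups. The size is uncertain, since the CON 4W intensities of 36.1, 17.6 and 12.2 reached down to background. Over the 11 other settings the difference ran from -1.49 to -0.56. The brighter Nid1 probe, ILMN_2814005, was at 6.20, 6.20 and 6.85 in CON 4W and at 6.66, 7.21, 7.64 and 7.57 in CON 1W. Here CON 4W replicate 3 lay above CON 1W replicate 1, and the fall was 0.86 (SE 0.21, adjusted p = 0.034). Nid2 was at 6.56, 6.42 and 6.75 in CON 4W and at 6.82, 6.90, 6.96 and 6.84 in CON 1W. Although its groups did not overlap, the Nid2 difference of -0.31 was not called (SE 0.13, adjusted p = 0.24).

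Lamc1 had levels of 7.91, 7.65 and 7.82 in CON 4W and of 8.36, 8.46, 8.59 and 8.42 in CON 1W on ILMN_2774596. It fell by 0.67 in log2 units (SE 0.10, adjusted p = 0.0018 from limma), and all CON 4W arrays were below all CON 1W arrays. On its dimmer probe, ILMN_2974798, the levels were 6.72, 6.34 and 6.99 in CON 4W and 7.16, 7.39, 7.31 and 7.26 in CON 1W, a fall of 0.60 (SE 0.14, adjusted p = 0.031). The chains that join Lamc1 in the mature glomerular laminin were not called. Lama5 differed by -0.40 (SE 0.14, adjusted p = 0.16) and Lamb2 by -0.17 (SE 0.12, adjusted p = 0.55). Lama1, at 7.75, 7.64 and 7.64 in CON 4W and 7.45, 7.36, 7.56 and 7.46 in CON 1W, had the single estimate above 0, at 0.22 (SE 0.14, adjusted p = 0.47).

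Hspg2 was at 9.51, 8.85 and 9.35 in CON 4W and at 9.74, 9.92, 9.89 and 9.58 in CON 1W on ILMN_2685329. The groups did not overlap, although CON 4W replicate 1 lay close to CON 1W replicate 4. This probe fell by 0.55 in log2 units (SE 0.14, adjusted p = 0.045 from limma). The dimmer ILMN_2520249 was at 8.63, 7.94 and 8.31 in CON 4W and at 8.70, 8.96, 8.84 and 8.63 in CON 1W, with a difference of -0.49 (SE 0.14) that was not called (adjusted p = 0.082). Lama4, read near background, differed by -0.13 (SE 0.16, adjusted p = 0.73).

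When 1 array was left out at a time, the calls of Sparc on ILMN_3136561, of Nid1 on ILMN_2560756 and of Lamc1 on ILMN_2774596 held in all 15 refits. Those of Lamc1 on ILMN_2974798 and of Nid1 on ILMN_2814005 were lost without CON 1W replicate 2, 3 or 4 or CON 4W replicate 1 or 2 (adjusted p of 0.059 to 0.16 and of 0.063 to 0.15). Sparc on ILMN_3059326 was lost without any 1 of the CON 4W arrays, without CON 1W replicate 2, 3 or 4 and without RES 1W replicate 1 (0.051 to 0.11). Hspg2 was called in 4 of the 15 refits, those without CON 1W replicate 4, RES 1W replicate 2, CON 4W replicate 1 or RES 4W replicate 1, and its adjusted p was 0.20 when CON 4W replicate 2 was left out.

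**Figure D2:**
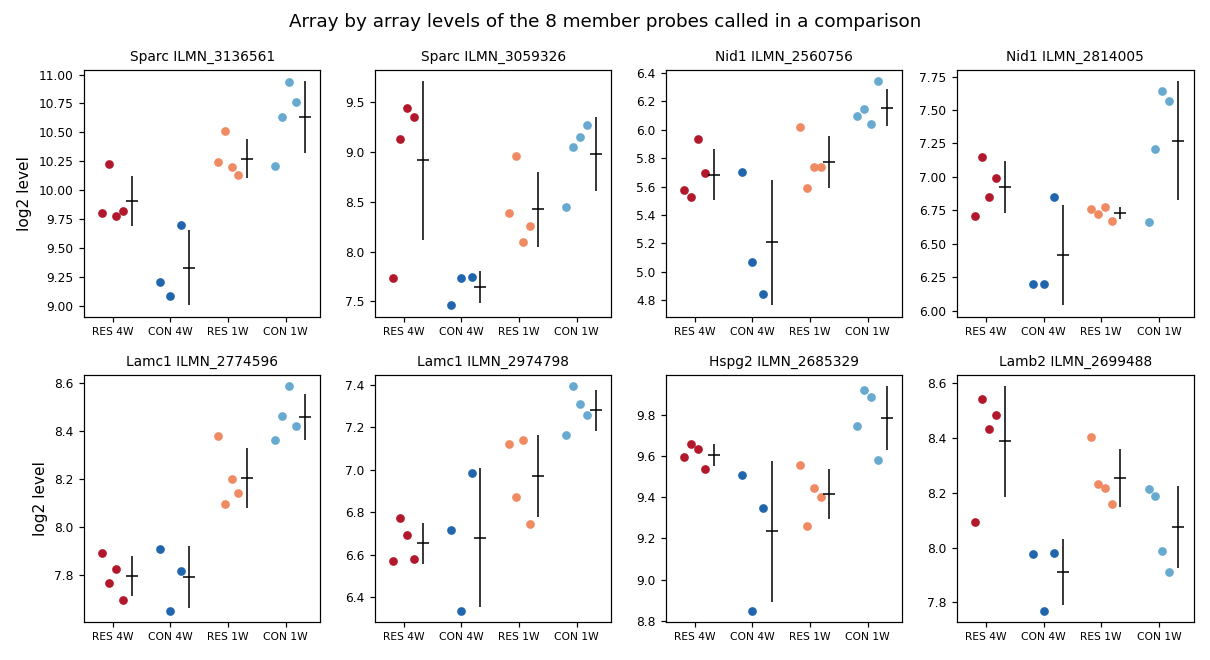
Log2 level (y axis, a scale of its own per panel) of each array (points) with the group mean and 1 SD (black) for the 8 member probes called in a comparison, in RES 4W, CON 4W, RES 1W and CON 1W. On the Sparc, Nid1, Lamc1 and Hspg2 probes the CON 4W mean lies below the CON 1W mean, and on Lamb2 the 4 RES 4W arrays, at 8.09 to 8.54, lie above the 3 CON 4W arrays, at 7.77 to 7.98.

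Cell markers moved in the same comparison. The summed level of 10 endothelial markers (the log2 of the sum of their linear levels, in which bright markers weigh most) was 13 to 13.10 in CON 4W and 13.19 to 13.35 in CON 1W, with 2 of the 10 called lower (Egfl7 and Tek). The differences of the 10 ran from -0.502 to 0.314, with Flt1 at -0.02, Cdh5 at -0.04 and Kdr at 0.31. The summed level of the 7 tested fibroblast and pericyte markers was 10.56 to 10.57 in CON 4W and 10.69 to 10.93 in CON 1W, with 1 of 7 called lower (Col1a1, by 1.16), and Col3a1 was detected in 0 arrays. The podocyte sum over 4 tested markers was 10.95 to 11.24 in CON 4W and 11.10 to 11.32 in CON 1W, with 0 called and the groups overlapping. The vascular smooth muscle sum over 3 tested markers was 11.26 to 11.51 in CON 4W and 11.54 to 11.87 in CON 1W, and the erythroid sum over 2 was 14.45 to 14.60 in CON 4W and 14.64 to 14.81 in CON 1W, both with 0 called. Their part in the falls of the member genes was not tested.

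The start regions of the members that moved are shown so that their sequences can be set beside their levels. RefSeq promoters on GRCm38.p6, 250 bases before to 50 bases after the gene start, were at hand for 6 members (Lama5, Lamb1, Lamb2, Nid1, Hspg2 and Sparc). Capitals mark GC boxes, the letters GGGCGG read on either strand, which occur in 35.7% of the 32851 promoters of the same length. The first is Nid1 at chr13:13437352-13437651 on the plus strand, the next Hspg2 at chr4:137468553-137468852 on the plus strand, then Sparc at chr11:55420031-55420330 on the minus strand and Lamb2 at chr9:108479612-108479911 on the plus strand.
Nid1: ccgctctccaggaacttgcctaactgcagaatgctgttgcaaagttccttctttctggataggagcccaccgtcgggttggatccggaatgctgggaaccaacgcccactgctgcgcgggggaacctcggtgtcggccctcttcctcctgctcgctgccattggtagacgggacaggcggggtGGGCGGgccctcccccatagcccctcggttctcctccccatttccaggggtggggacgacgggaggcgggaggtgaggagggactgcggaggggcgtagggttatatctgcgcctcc
Hspg2: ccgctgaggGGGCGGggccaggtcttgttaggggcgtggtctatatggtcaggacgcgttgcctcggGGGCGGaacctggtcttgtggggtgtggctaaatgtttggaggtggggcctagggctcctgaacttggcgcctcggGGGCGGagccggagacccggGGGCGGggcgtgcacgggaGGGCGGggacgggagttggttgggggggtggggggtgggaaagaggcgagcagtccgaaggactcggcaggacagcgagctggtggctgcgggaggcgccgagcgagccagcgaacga
Sparc: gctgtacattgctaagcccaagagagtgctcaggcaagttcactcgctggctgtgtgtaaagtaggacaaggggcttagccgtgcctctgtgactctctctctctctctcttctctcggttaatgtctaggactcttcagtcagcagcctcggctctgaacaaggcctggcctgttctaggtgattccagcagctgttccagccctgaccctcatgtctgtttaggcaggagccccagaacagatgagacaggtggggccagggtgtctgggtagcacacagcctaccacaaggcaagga
Lamb2: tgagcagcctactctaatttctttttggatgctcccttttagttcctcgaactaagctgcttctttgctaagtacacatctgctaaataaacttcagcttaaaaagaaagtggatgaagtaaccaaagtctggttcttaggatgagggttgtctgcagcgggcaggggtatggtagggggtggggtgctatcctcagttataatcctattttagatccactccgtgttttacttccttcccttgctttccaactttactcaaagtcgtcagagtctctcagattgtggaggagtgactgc

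Hspg2 held 5 GC boxes and Nid1 held 1, whereas Sparc and Lamb2 held 0, so the 3 members shown that fell with age did not share this motif. Lama5 held 4 and Lamb1 held 2, with a GC content of 72.7% and 63.7%. GC content was 70.3% in Hspg2, 64.7% in Nid1, 55.3% in Sparc and 44.0% in Lamb2, with a median of 52.7% over all promoters. The TATA box TATAAA and the AP-1 element TGANTCA, searched on both strands, were in none of the 6 member promoters, and occur in 13.6% and 7.81% of all promoters. The CCAAT box (CCAAT, 37.4% of all promoters) was found once in Nid1 and once in Lamb1. The letters TGGAAA, the core of the tonicity element that Nfat5 binds, were found once in Nid1 and once in Lamb2, and in 21.4% of all promoters. Read on the other strand, CCAAT is ATTGG and can share letters with TGGAAA. A match of letters is a description and shows no binding site.

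The effect of 4 weeks of restriction was read from RES 4W against CON 4W. Lamb2 and Sparc rose, by 1 probe each, and 2 of the 14 tested member probes were called, both higher. Over all tested probes, 3.63% were called higher. Both calls were lost under the ANOVA of the methods, run on the levels and threshold used here (adjusted p of 0.058 for Lamb2 and 0.092 for Sparc). They were also lost with no filter on dim probes (0.054 and 0.089) and in limma on RES 4W and CON 4W alone (0.14 each). Each was called under 7 of the 11 other settings, the authors' log2 values among them. Read from the brightest probe, 1 of 9 genes rose (Lamb2) and 0 fell, with a median difference of 0.344 against 0.0045 over all tested probes. The groups did not overlap on 4 of the 14 probes, against 14.7% of all tested probes. Among these 4 the near-background Sparc probe ILMN_1243212 was lower in RES 4W, by 0.25.

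Lamb2, the beta chain of the mature glomerular laminin, was at 8.09, 8.54, 8.43 and 8.48 in RES 4W and at 7.98, 7.77 and 7.98 in CON 4W. Every RES 4W array was above every CON 4W array, with RES 4W replicate 1 the lowest of its group. The rise was 0.48 in log2 units (SE 0.12, adjusted p = 0.035 from limma), a 1.39-fold difference, and 0.58 (adjusted p = 0.0016) without RES 4W replicate 1. The call was lost without RES 4W replicate 2, 3 or 4 or without any 1 of the CON 4W arrays (0.076 to 0.11).

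Sparc on ILMN_3059326 was at 7.74, 9.13, 9.45 and 9.36 in RES 4W and at 7.46, 7.73 and 7.74 in CON 4W. RES 4W replicate 1 lay at the level of the CON 4W arrays, and the 3 other RES 4W arrays were above all of them. The rise was 1.27 (SE 0.33, adjusted p = 0.035 from limma), and 1.67 (adjusted p = 8e-05) without RES 4W replicate 1. This call too was lost without RES 4W replicate 2, 3 or 4 or any 1 of the CON 4W arrays (0.076 to 0.11). On the brighter ILMN_3136561, Sparc was at 9.80, 10.22, 9.77 and 9.82 in RES 4W and at 9.21, 9.08 and 9.70 in CON 4W. The groups did not overlap, and the difference of 0.58 was not called (SE 0.18, adjusted p = 0.064), whereas it was called without RES 4W replicate 1 (0.61, adjusted p = 0.032) and without CON 1W replicate 1 (0.58, adjusted p = 0.049). It was also called under 5 of the 11 other settings, namely an offset of 50, median scaling, the strict filter, the trended and robust prior and array weights (0.036 to 0.049).

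The linkers and the other chains did not pass the test in RES 4W against CON 4W. Nid1 was at 6.70, 7.15, 6.85 and 7.00 in RES 4W and at 6.20, 6.20 and 6.85 in CON 4W on ILMN_2814005, a difference of 0.51 (SE 0.21, adjusted p = 0.13 from limma). On ILMN_2560756 the Nid1 difference was 0.48 (SE 0.17, adjusted p = 0.098), and it was called without CON 4W replicate 1 (0.73, adjusted p = 0.031). Hspg2 was at 9.59, 9.66, 9.63 and 9.54 in RES 4W, a narrow range above the CON 4W levels of 9.51, 8.85 and 9.35, with a difference of 0.37 (SE 0.14, adjusted p = 0.11) on ILMN_2685329 and of 0.08 (SE 0.14, adjusted p = 0.76) on ILMN_2520249.

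Lama5 was at 7.37, 7.83, 7.95 and 7.87 in RES 4W and at 7.61, 7.33 and 7.30 in CON 4W, so that RES 4W replicate 1 lay among the CON 4W arrays. Its difference was 0.34 (SE 0.14, adjusted p = 0.14 from limma), and 0.47 (adjusted p = 0.010) without RES 4W replicate 1. Lamc1 had estimates of 0.00 (SE 0.10) and -0.03 (SE 0.14), with 95% intervals of -0.22 to 0.23 and of -0.33 to 0.27. The intervals do not exclude a small change. Lama1 (0.02, adjusted p = 0.94), Nid2 (-0.15, adjusted p = 0.48) and Lama4 (0.25, adjusted p = 0.33) were not called either. Sparc on the near-background ILMN_1243212 had a difference of -0.25 (adjusted p = 0.21), with 0 RES 4W arrays and 1 CON 4W array detected.

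RES 4W replicate 1 was set apart for its likeness to CON 4W in these same data. Without it, 4 of the 14 member probes were called in this comparison (Lamb2, Lama5 and the 2 brighter Sparc probes), all higher. But 24.1% of all tested probes were then called in either direction. In the same contrast the summed endothelial level was 13.14 to 13.24 in RES 4W and 13 to 13.10 in CON 4W, with 1 of 10 markers called higher (Pecam1, by 0.55). The podocyte sum was 11.29 to 11.47 in RES 4W and 10.95 to 11.24 in CON 4W, with 0 of 4 called, and the fibroblast and pericyte sum was 10.55 to 10.75 in RES 4W and 10.56 to 10.57 in CON 4W, with 0 of 7 called. The collecting duct sum over 5 markers was 11.70 to 12.16 in RES 4W and 11.52 to 11.63 in CON 4W, with 1 called higher (Aqp2, by 2.11). The proximal tubule sum over 5 markers was 15.35 to 15.43 in RES 4W and 15.47 to 15.51 in CON 4W, although its 1 called marker, Slc5a2, was higher by 0.96. Single markers differed by -0.304 to 0.547 in endothelium, by -0.004 to 0.374 in podocyte and by -0.178 to 2.106 in collecting duct. The collecting duct markers other than Aqp2 were mixed, with Aqp3 at 0.25, Atp6v1g3 at 0.23, Scnn1g at -0.07 and Slc4a1 at -0.18. The part of the markers in the rises of Lamb2 and Sparc was not tested.

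The effect of 1 week of restriction was read from RES 1W against CON 1W. No member probe was called in this comparison by limma (0 of 14), where 2.81% of all tested probes were called, and the ANOVA of the methods called 0 as well. An unadjusted p under 0.05 was found for 7 of the 14, and for 14.3% of all tested probes. Of the 14 estimates 12 were below 0. The median over the 9 genes was -0.254, against -0.0019 over all tested probes, and the groups did not overlap on 4 of 14 probes, against 10.1% of all tested probes.

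Nid2 came closest to the threshold. It was at 6.68, 6.49, 6.31 and 6.27 in RES 1W and at 6.82, 6.90, 6.96 and 6.84 in CON 1W, without overlap, and differed by -0.44 (SE 0.12, adjusted p = 0.054 from limma). The difference was called without RES 1W replicate 1 (-0.52, adjusted p = 0.030) and without RES 4W replicate 1 (-0.44, adjusted p = 0.041). Nid1 was at 6.76, 6.72, 6.78 and 6.67 in RES 1W, within a narrow range, and at 6.66, 7.21, 7.64 and 7.57 in CON 1W on ILMN_2814005. Its difference of -0.54 was not called (SE 0.19, adjusted p = 0.17), although it was without CON 1W replicate 1, the lowest array of its group (-0.74, adjusted p = 0.023). On ILMN_2560756, Nid1 did not overlap between the groups, at 6.02, 5.59, 5.74 and 5.74 in RES 1W against 6.10, 6.15, 6.04 and 6.34 in CON 1W (difference -0.38, SE 0.16, adjusted p = 0.27).

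Hspg2 on ILMN_2685329 was at 9.55, 9.26, 9.44 and 9.40 in RES 1W and at 9.74, 9.92, 9.89 and 9.58 in CON 1W, a difference of -0.37 (SE 0.13, adjusted p = 0.16 from limma). Lamc1 differed by -0.25 (SE 0.10, adjusted p = 0.21) and by -0.31 (SE 0.13, adjusted p = 0.28) on its 2 probes. Sparc was at 10.24, 10.51, 10.20 and 10.13 in RES 1W and at 10.21, 10.63, 10.94 and 10.76 in CON 1W on ILMN_3136561, so that the groups overlapped (difference -0.36, SE 0.17, adjusted p = 0.34). On ILMN_3059326 the Sparc difference was -0.56 (SE 0.30, adjusted p = 0.45). Among the chains detected in all 15 arrays, only Lamb2 had an estimate above 0, at 0.18 (SE 0.11, adjusted p = 0.55). Lama1 differed by -0.21 (SE 0.13, adjusted p = 0.53) and Lama5 by -0.17 (SE 0.13, adjusted p = 0.65), while Lama4 near background differed by 0.02 (adjusted p = 0.98).

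At 4 weeks of age the marker sums that stood apart were those of collecting duct, at 11.86 to 12.03 in RES 1W and 11.46 to 11.71 in CON 1W (2 of 5 markers called higher, Aqp2 and Aqp3), podocyte, at 11.38 to 11.72 in RES 1W and 11.10 to 11.32 in CON 1W (1 of 4 called higher, Ptpro), and proximal tubule, at 15.15 to 15.33 in RES 1W and 15.37 to 15.55 in CON 1W (1 of 5 called lower, Slc22a6). Single markers differed by -0.119 to 1.464 in collecting duct, by 0.232 to 0.586 in podocyte and by -0.487 to 0.483 in proximal tubule. The collecting duct markers other than Aqp2 and Aqp3 were not higher, with Scnn1g at -0.04, Atp6v1g3 at -0.12 and Slc4a1 at -0.01. The part of the markers in the member values was not tested.

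**Figure D3:**
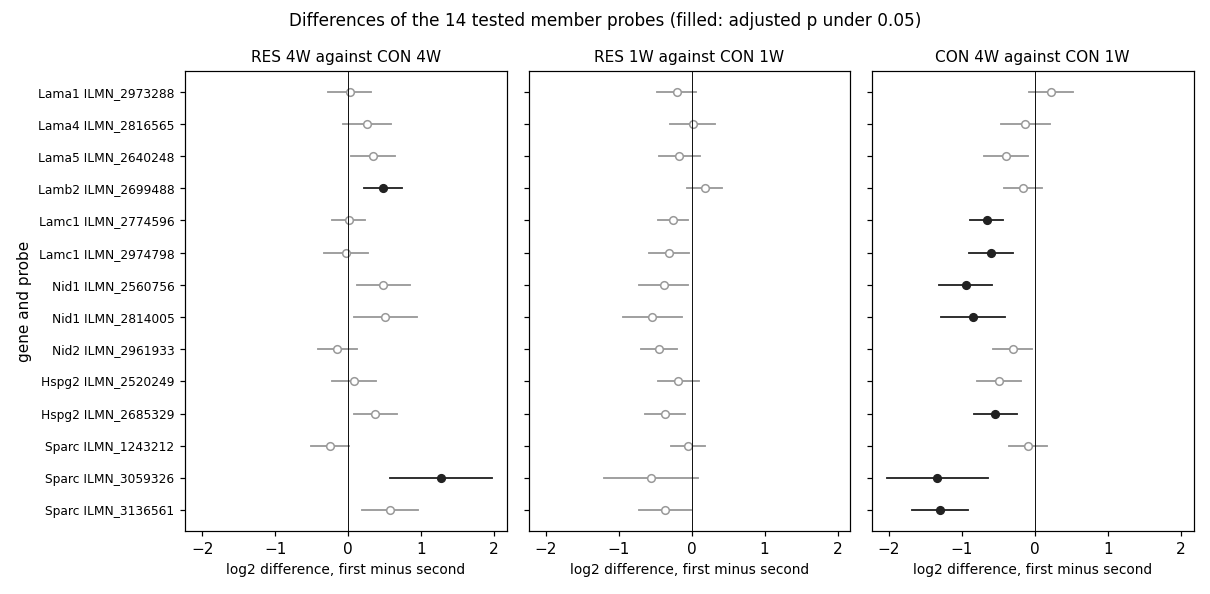
Log2 difference (x axis, point, with its 95% interval) of the 14 tested member probes (rows) between RES 4W and CON 4W (left), between RES 1W and CON 1W (middle) and between CON 4W and CON 1W (right). Filled black points have an adjusted p under 0.05, and there were 2 on the left, both above 0, none in the middle and 7 on the right, all below 0.

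Whether the restriction effect differed between the ages was tested as the difference of both effects, RES 4W minus CON 4W less RES 1W minus CON 1W. By limma, 0 of the 14 member probes were called, where 0.583% of all tested probes were, and the ANOVA of the methods called 0. An unadjusted p under 0.05 was found for 6 of the 14, and for 18.7% of all tested probes. Of the 14 estimates, 13 were above 0, and the median over the 9 genes was 0.301 against 0.0065 over all tested probes. Both CON groups enter this difference and the comparison with age, which therefore share their arrays.

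Sparc on ILMN_3059326 differed by 1.83 (SE 0.45, adjusted p = 0.065 from limma), the restriction effect being 1.27 at 7 weeks and -0.56 at 4 weeks. On ILMN_3136561 the Sparc estimate was 0.94 (SE 0.25, adjusted p = 0.076). Nid1 differed by 1.05 (SE 0.28, adjusted p = 0.079) on ILMN_2814005 and by 0.86 (SE 0.23, adjusted p = 0.083) on ILMN_2560756, and Hspg2 by 0.74 (SE 0.19, adjusted p = 0.072) on ILMN_2685329 but by 0.27 (SE 0.19, adjusted p = 0.48) on ILMN_2520249. Lama5 stood at 0.51 (SE 0.19, adjusted p = 0.17). The laminin chains Lamb2, Lamc1 and Lama1 had estimates of 0.30, 0.26 and 0.23, with adjusted p of 0.34 to 0.55, and Nid2 had 0.29 (adjusted p = 0.38).

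RES 4W replicate 1 was set apart for its likeness to CON 4W in these same data. Without it, 6 member probes were called in this difference, and 15.0% of all tested probes were. They were Sparc on ILMN_3059326 (2.22, adjusted p = 0.00026 from limma) and ILMN_3136561 (0.97, adjusted p = 0.018), Nid1 on ILMN_2814005 (1.12, adjusted p = 0.016) and ILMN_2560756 (0.90, adjusted p = 0.021), Hspg2 on ILMN_2685329 (0.74, adjusted p = 0.019) and Lama5 (0.64, adjusted p = 0.014). Single calls also arose without CON 4W replicate 1 (Nid1 on ILMN_2560756, 1.11, adjusted p = 0.033) and, for Nid1 on ILMN_2814005 (1.25, adjusted p = 0.032) and Sparc on ILMN_3136561 (1.08, adjusted p = 0.047), without CON 1W replicate 1.

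**Figure D4:**
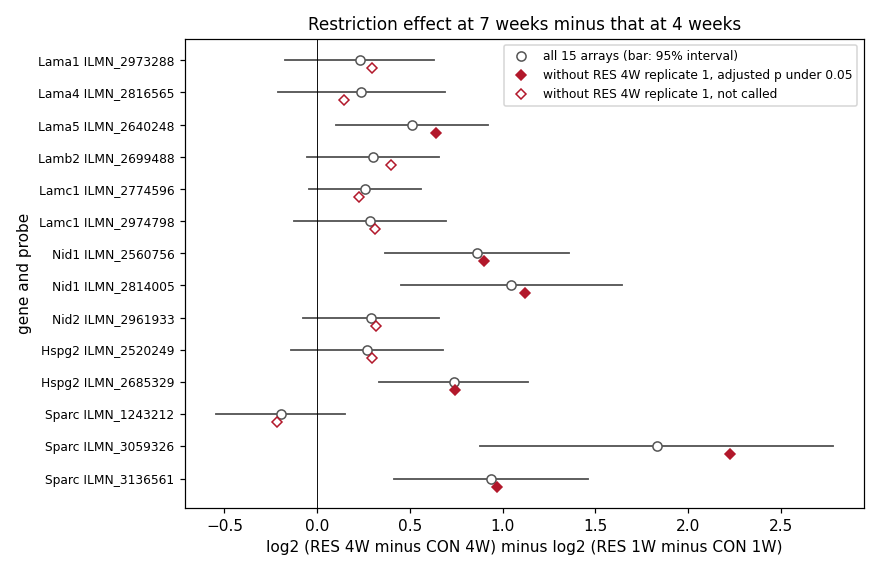
Restriction effect at 7 weeks minus that at 4 weeks (x axis, log2 scale) of the 14 tested member probes (rows), from all 15 arrays (circles with 95% intervals) and without RES 4W replicate 1 (diamonds, filled at an adjusted p under 0.05). All circles but that of Sparc ILMN_1243212 lie above 0, 0 of them were called, and 6 diamonds are filled.

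The genes closest to each called member were sought among the probes called in the same comparison, by the root mean square difference of their centred log2 levels over the 15 arrays. For Sparc they were Mfap2, a microfibril protein (0.184), Col4a5, a type IV collagen chain (0.208), and Col6a1, a type VI collagen chain (0.224). For Nid1 they were Cenpm, a centromere protein (0.217), Ccdc28b (0.231) and the secreted Olfml3 (0.233). For Lamc1 they were Dock6, an exchange factor of small GTPases (0.120), Ncaph, a condensin subunit (0.124), and Tubb5, a beta tubulin (0.135). Hspg2 was closest to Cenpm (0.161), the actin-binding thymosin Tmsb10 (0.167) and Dpp4, a peptidase of the tubular brush border (0.169). All of these were sought among the 482 or 483 other named probes called in CON 4W against CON 1W. For Lamb2, among 1072 other named probes called in RES 4W against CON 4W, the closest were Mxd4, a Max-binding repressor (0.112), Hnrnph1, a splicing factor (0.115), and Ppp2cb, a phosphatase catalytic subunit (0.116).

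Partners of the members in the basement membrane were counted from lists. Over all tested probes, 1.79% were called lower with age, and 3.63% higher in RES 4W against CON 4W. In either direction, 2.81% were called in RES 1W against CON 1W, and 0.583% for the difference of the restriction effects. The share called lower in RES 4W against CON 4W is not given here, so falls there have no share beside them. Of the other laminin chains, 3 of 5 genes were tested and 0 were called in any of the 4 comparisons. Lama2, the alpha chain of muscle and nerve, had its smallest adjusted p of 0.19 in RES 4W against CON 4W (0.60, SE 0.28), Lamb3, a chain of epithelial anchoring laminin, 0.26 there (0.33, SE 0.18), and Lamc3 0.24 in CON 4W against CON 1W (-0.33, SE 0.14), all from limma.

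Of the other basement membrane components, 17 of 22 genes were tested. With age 5 of the 17 fell and 0 rose, with a median of -0.319, and the study had named some of them, Col4a1 and Col4a2, from these samples. Col4a1 and Col4a2, the common type IV collagen chains, were both lower in CON 4W. Col4a1 fell by 0.97 (SE 0.10, adjusted p = 4.9e-05 from limma) and Col4a2 by 1.02 (SE 0.13, adjusted p = 0.00023). Col4a3, a chain of the mature glomerular membrane, fell by 0.64 (SE 0.12, adjusted p = 0.0097), and Col15a1, a collagen beneath basement membranes, by 0.71 (SE 0.13, adjusted p = 0.0060). In RES 1W against CON 1W, 3 fell and 0 rose: Col4a1 by 0.54 (SE 0.09, adjusted p = 0.0040), Col4a2 by 0.53 (adjusted p = 0.021) and Col15a1 by 0.53 (adjusted p = 0.024). In RES 4W against CON 4W, 1 of the 17 rose, Tinagl1, a matrix glycoprotein related to Tinag, by 0.88 (SE 0.21, adjusted p = 0.027), named here after its value was seen. The difference of the restriction effects was called for Col4a1 alone, at 0.70 (SE 0.14, adjusted p = 0.036).

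Of the receptors of laminin and nidogen, 10 of 13 were tested, and 1 was called. Bcam, the Lutheran glycoprotein, which binds the laminin alpha 5 chain, rose by 0.84 in RES 4W against CON 4W (SE 0.17, adjusted p = 0.013 from limma). Its mean level was 7.05 in RES 4W and 6.20 in CON 4W, with no overlap. The integrin chains Itgb4, Itga3 and Itga1 had smallest adjusted p of 0.23, 0.25 and 0.26 over the 4 comparisons.

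Of 12 tested genes of assembly and crosslinking, 2 fell with age. Serpinh1, the collagen chaperone HSP47, which the study had also named, fell by 0.83 (SE 0.13, adjusted p = 0.0024 from limma), and Lox, which crosslinks collagen and elastin, by 0.98 (SE 0.20, adjusted p = 0.015). Bmp1, a procollagen protease, was not called with age (-0.40, adjusted p = 0.097). Colgalt1, a collagen galactosyltransferase, fell by 0.47 in RES 4W against CON 4W (SE 0.13, adjusted p = 0.049). Of 8 tested turnover genes, 1 fell in each comparison of groups and 0 differed between the restriction effects: the gelatinase Mmp2 by 0.70 with age (SE 0.16, adjusted p = 0.027), the protease Ctsl by 0.53 in RES 1W against CON 1W (SE 0.12, adjusted p = 0.023), and the protease inhibitor Timp3 by 0.62 in RES 4W against CON 4W (SE 0.12, adjusted p = 0.014). The membrane-bound Mmp14 was not called with age (-0.33, adjusted p = 0.24). Of the 3 tested relatives of Sparc, Fstl1, a secreted glycoprotein, fell by 0.71 with age (SE 0.17, adjusted p = 0.032), and Spock1 and Smoc1 had smallest adjusted p of 0.21 and 0.82 over the 4 comparisons.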

How the data were processed

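Kidney RNA of 15 mice was hybridized to Illumina MouseWG-6 arrays. The deposited intensity values and detection p-values were written by GenomeStudio 1.0.2, per the submitters' processing notes, and had been background-subtracted and quantile-normalized by the authors: 34.9% of the intensities were not above 0, and once sorted, the arrays matched above an intensity of 5 to within 0.127. The log2 values deposited in the series table were the authors' log2 of the same intensities, and 52.2% of them were missing. Log2 levels came from the deposited intensities through neqc (limma 3.58.1, R 4.3.3, normexp, offset 16, quantile normalization), which corrects already corrected values a further time.

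The group means of 19027 probes were modelled with lmFit and eBayes over all 15 arrays, with two-sided p-values and Benjamini-Hochberg adjustment within a comparison. Probes were matched to genes by gene ID, since Lamb2 is also an older name of Lamc1, and a gene was read first from its brightest tested probe. Of the tested probes 16351 had 1 symbol, and 16332 of them were matched. Of the pathway lists, up to 4 genes with the smallest adjusted p in any comparison were named. For each called member the 3 nearest genes were named. The members and lists were chosen with earlier results of these data known. Calling was tested on simulated data.

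Alternatives were to leave out the further background correction, to set the offset to 50, median scaling, the log2 values of the series table, no filter and a strict filter on dim probes, a trended and robust prior, array weights, only the groups compared, the methods' ANOVA (lmFit without eBayes, on the levels and threshold used here), the replicate number as a block and each array left out. The tonicity and other motifs were searched in RefSeq promoters on GRCm38.p6.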

Additional observations from a re-analysis of the deposited data

Results flagged for a closer look

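Of 42 sets of 4 arrays of a tested member probe, 3 had an array far from the other 3 of its group, a share of 7.14%, where chance flags about 1 in 20. Lama4 on the near-background ILMN_2816565 was at a log2 level of 5.11 in RES 4W replicate 1, against 4.72 to 4.77 in the other RES 4W arrays. Lama5 was at 7.47 in RES 1W replicate 2, against 7.69 to 7.71 in the other RES 1W arrays. Sparc on ILMN_3136561 was at 10.22 in RES 4W replicate 2, against 9.77 to 9.82 in the other RES 4W arrays.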

How the results depend on the processing

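No called value of a member probe changed its sign under any alternative, and 8 of the 47 values not called did so in at least 1. In RES 4W against CON 4W, where 2 member probes were called, 6 were with array weights (with 5129 of all 19027 tested probes), 3 with an offset of 50, median scaling, the strict filter or the trended and robust prior, 1 without further background correction, 1 with the replicate block, and 0 with no filter, only the groups compared or the methods' ANOVA. Of all tested probes, 1719 were called with an offset of 50, 1183 with median scaling and 1753 with the trended and robust prior. The strict filter called 1513 of 13073, and no filter 510 of 45281. The other counts were 757 without further background correction, 819 with the replicate block and 400 with the methods' ANOVA. With age the 7 called became 4 with no filter, 4 with only the groups compared and 3 with the methods' ANOVA. These settings called 485 of 45281, 433 of 19027 and 517 of 19027 probes. In RES 1W against CON 1W, where 0 were called, 1 was (Nid2) without further background correction, with an offset of 50, the authors' log2 values, the strict filter or array weights. In that order, these settings called 626 of 19027, 708 of 19027, 538 of 14768, 672 of 13073 and 791 of 19027 probes. For the difference of the restriction effects, also at 0, 2 were called with an offset of 50 (with 268 of all 19027 tested probes), the strict filter (with 288 of 13073) or the trended and robust prior (with 309 of 19027), and 6 with array weights (with 2878 of all tested probes), which gave RES 4W replicate 1 a weight of 0.221. With 1 array left out the counts ran from 0 to 4 in RES 4W against CON 4W (4 without RES 4W replicate 1, and 0 without CON 4W replicate 2 or 3 or RES 4W replicate 2, 3 or 4), from 3 to 7 with age (3 without CON 1W replicate 2 or 3 or CON 4W replicate 2), from 0 to 1 in RES 1W against CON 1W and from 0 to 6 for the difference. The cause of these shifts was not tested. Over all tested probes 4576 were called in RES 4W against CON 4W without RES 4W replicate 1, and 3 with only the groups compared. Same-numbered arrays showed little shared deviation (correlations of -0.118 to 0.186 over 21 pairs), and the labels do not say that the numbers pair the mice. With the replicate block, Lamb2 in RES 4W against CON 4W and Hspg2 on ILMN_2685329 with age lost their calls (adjusted p = 0.058 and 0.055 from limma), and the age count was 6. Signal limits what was measured: the strict filter and the authors' log2 values left 12 of the 19 member probes, and Lama4 and Lamb1 lay at or near background.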
